A study of Mus musculus with 20 samples.

Results

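Fatty acid elongases and desaturases lengthen fatty acids and put double bonds into them, and 10 of their genes were examined in mouse liver: Elovl1, Elovl2, Elovl3, Elovl5, Elovl6, Elovl7, Fads1, Fads2, Fads6 and Scd1. They were chosen by gene symbol, and each had 1 row in a table of 19505 named genes. RNA came from whole livers in 4 groups, which were OGT liver knockout (KO) mice at 4 weeks, wild type (WT) at 4 weeks, KO at 8 weeks and WT at 8 weeks, with 5 mice and 5 Clariom S Mouse arrays in each group. OGT is the O-GlcNAc transferase, which attaches N-acetylglucosamine to intracellular proteins. The genotype labels read OGTL KO and OGTL WT. The Cre driver, the floxed allele and the mouse strain are not given in the sources used here. Nothing in the labels describes a treatment.

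Elongation runs in the endoplasmic reticulum as a cycle of 4 reactions, and an ELOVL enzyme carries out the first, which condenses malonyl-CoA with an acyl-CoA and sets which chains are lengthened. Desaturases of the FADS and SCD families take electrons through cytochrome b5 and its reductase. In liver, ELOVL6 and SCD1 finish newly made palmitate into stearate, palmitoleate and oleate, while FADS2, ELOVL5, FADS1 and ELOVL2 turn dietary linoleic and alpha-linolenic acids into long polyunsaturated fatty acids such as arachidonic and docosahexaenoic acid. ELOVL1, ELOVL3 and ELOVL7 act mainly on saturated and monounsaturated long chains. Hepatic Elovl3 is known in mice as a gene with higher expression in males and a daily rhythm.

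Values are log2 signals as the authors deposited them, so 1 unit is a 2-fold difference. Calls, as higher or lower, required a limma adjusted p below 0.05 over all 19505 genes. The background level was the 95th percentile of the group means of 1412 olfactory and vomeronasal receptor genes, and lay at 5.04 in KO and 5.01 in WT livers at 4 weeks, and at 5.02 in KO and 5.20 in WT livers at 8 weeks. Of the 10 genes, 9 had a group mean above background in all 4 groups, and Elovl7 had one in both KO groups only. Elovl2, Scd1, Elovl5 and Fads2 lay largely above 16 log2 units, as did Elovl3 in WT livers at 8 weeks. How such values arose is not given in the sources used here, and differences up there may be stretched or compressed.

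Ogt, the targeted gene, was 8.14 ± 0.53 in KO and 9.57 ± 0.31 in WT livers at 4 weeks (SD, n = 5 each), with a limma adjusted p of 8.82e-05. At 8 weeks the livers labelled KO had 9.81 ± 0.21 and WT livers had 10.08 ± 0.20 (SD, n = 5 each), and this difference was not called (limma adjusted p = 0.529). The labels of the 8-week arrays were therefore not checked by Ogt, and each 8-week KO value below is that of arrays labelled KO. Array medians ran from 5.42 to 5.58 log2 units. Acta1, a skeletal muscle actin, was above 15 on 3 arrays at 4 weeks (KO replicates 4 and 5 and WT replicate 4) and at most 6.11 on the other 17. Results that rest on those arrays are also given without them. The 11 hepatocyte markers, all above background in each group, summed to between 22.07 and 22.25 log2 units in KO and between 22.31 and 22.41 in WT livers at 4 weeks, so that those groups did not overlap. At 8 weeks the sums were 22.25 to 22.40 in KO and 22.27 to 22.35 in WT livers.

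The promoter windows of 5 of the genes are printed because they belong to the 2 patterns below: Elovl7, which was higher in KO livers at both ages, and Elovl2, Elovl5, Elovl6 and Fads2, which were lower at 8 weeks than at 4 weeks in WT livers. RefSeq sequences (GRCm38.p6) of 300 bases around the start of the gene were matched by gene identifier for 7 of the 10 genes, in 9 windows; Elovl3, Fads1 and Scd1 were not matched. Capitals mark GC boxes (GGGCGG) in Elovl7, Elovl2 and Fads2, CCAAT boxes (CCAAT) and an E-box (CACGTG) in Elovl5, and a nuclear receptor half-site (AGGTCA) in Elovl6, on either strand, so that a match on the other strand reads as its reverse complement.
Elovl7 (chr13:108214154-108214453, plus strand): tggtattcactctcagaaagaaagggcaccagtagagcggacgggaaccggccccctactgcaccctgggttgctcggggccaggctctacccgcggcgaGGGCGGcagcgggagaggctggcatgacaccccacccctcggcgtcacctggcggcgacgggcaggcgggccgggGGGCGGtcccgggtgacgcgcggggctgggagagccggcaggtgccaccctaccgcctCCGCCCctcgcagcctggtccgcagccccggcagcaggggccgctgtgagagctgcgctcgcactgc
Elovl2 (chr13:41220354-41220653, minus strand): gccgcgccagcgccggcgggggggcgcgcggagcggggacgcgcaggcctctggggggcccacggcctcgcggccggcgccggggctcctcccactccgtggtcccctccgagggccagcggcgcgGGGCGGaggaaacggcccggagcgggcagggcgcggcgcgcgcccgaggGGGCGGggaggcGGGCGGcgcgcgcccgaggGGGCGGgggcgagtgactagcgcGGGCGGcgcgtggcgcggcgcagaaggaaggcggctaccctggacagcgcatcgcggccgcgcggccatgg
Elovl5 (chr9:77917115-77917414, plus strand): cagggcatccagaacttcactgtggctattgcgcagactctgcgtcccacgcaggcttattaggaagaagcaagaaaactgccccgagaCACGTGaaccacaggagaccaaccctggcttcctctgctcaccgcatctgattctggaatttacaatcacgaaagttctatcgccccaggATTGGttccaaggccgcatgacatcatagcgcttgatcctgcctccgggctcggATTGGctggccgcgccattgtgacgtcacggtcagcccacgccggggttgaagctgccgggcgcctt
Elovl6 (chr3:129532136-129532435, plus strand): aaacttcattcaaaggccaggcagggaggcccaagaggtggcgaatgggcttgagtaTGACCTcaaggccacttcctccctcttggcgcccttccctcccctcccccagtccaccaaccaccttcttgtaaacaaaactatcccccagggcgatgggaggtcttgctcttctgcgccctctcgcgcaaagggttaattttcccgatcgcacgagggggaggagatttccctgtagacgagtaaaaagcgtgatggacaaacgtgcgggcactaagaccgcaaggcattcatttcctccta
Fads2 (chr19:10101454-10101753, minus strand): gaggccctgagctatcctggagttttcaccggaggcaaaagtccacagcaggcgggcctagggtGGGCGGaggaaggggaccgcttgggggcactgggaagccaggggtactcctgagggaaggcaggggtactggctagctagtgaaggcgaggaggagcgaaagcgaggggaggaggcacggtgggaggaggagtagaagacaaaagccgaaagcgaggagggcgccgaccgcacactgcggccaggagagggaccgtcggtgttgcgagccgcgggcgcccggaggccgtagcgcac

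No match is shared by all of these 5 windows. A GC box was in 6 of the 9 windows (5 of the 7 genes), and 35.7% of 32851 promoter windows held one. CCAAT boxes were in 2 of the 9 windows and in 37.4% of all windows, E-boxes in 1 and in 7.15%, and half-sites in 3 and in 16.3%. The sterol regulatory element searched (TCACNCCAC, both strands) was in 0 of the 9 windows and in 1.24% of all windows. A STAT site (TTCNNNGAA) and a TATA box (TATAAA) were also in 0 of the 9, and in 8.3% and 13.6% of all windows. A second window of Elovl2, which is not printed, held no match to any of these motifs. These counts describe letters in short windows and say nothing of bound factors.

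**Figure D1:**
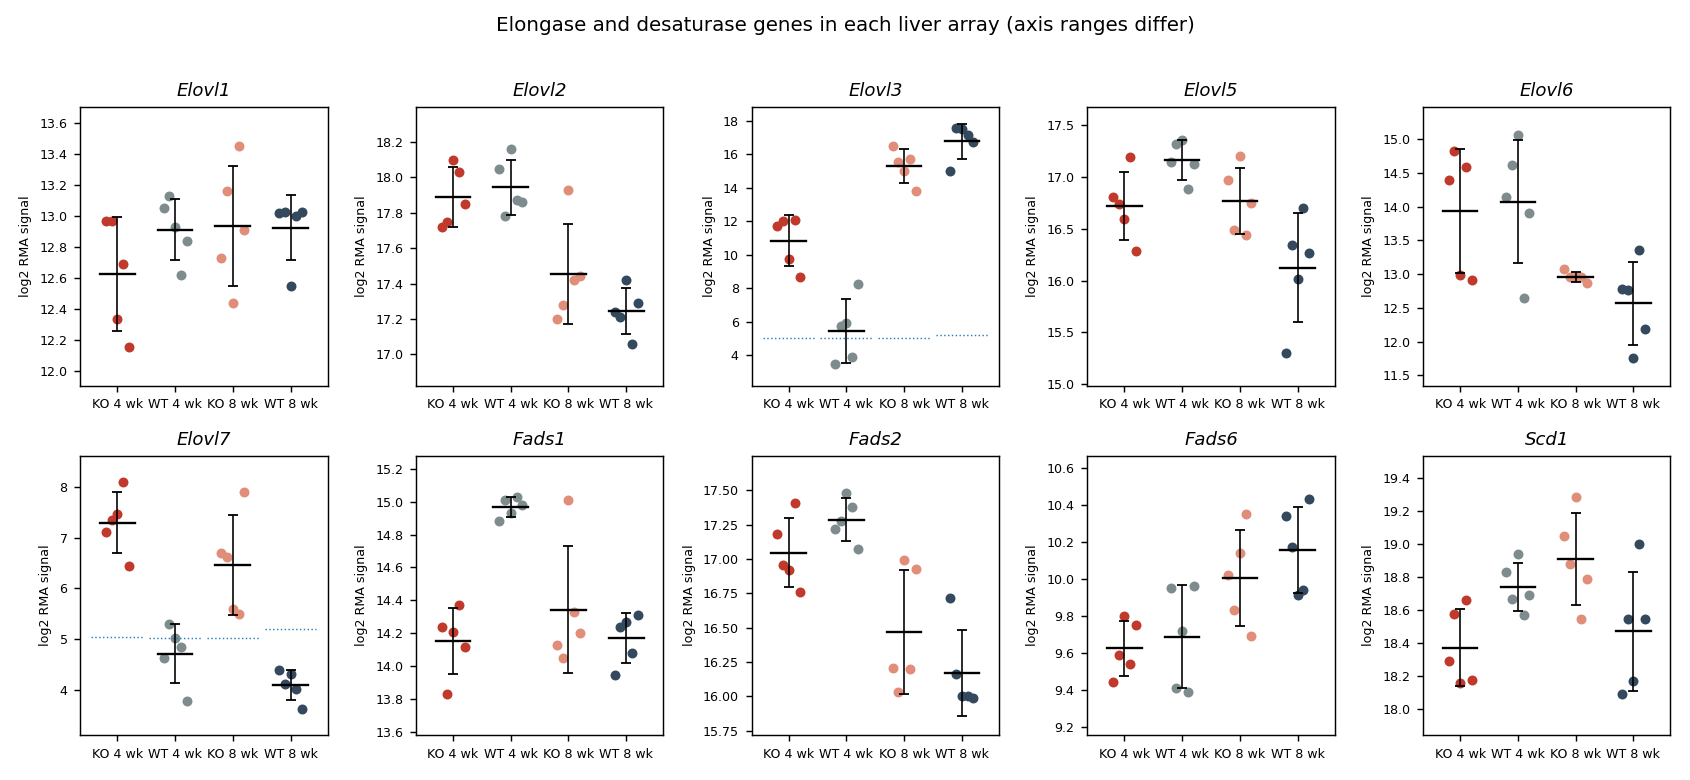
Each point is 1 liver array (log2 RMA signal), with the 4 groups along the horizontal axis, black lines for the mean and bars for the SD (n = 5). Dotted blue lines mark the background level, which is in view only for Elovl3 and Elovl7. Vertical ranges differ between genes. Elovl3 spans from 3.46 to 17.53 over the 20 arrays, while Elovl1 stays between 12.16 and 13.45.

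At 4 weeks, Elovl3 and Elovl7 were higher and Fads1 was lower in KO than in WT livers, and the other 7 genes were not called. The share called higher among all genes was 4.70% and the share called lower was 5.48%. With array medians set equal, that genome-wide split moved to 716 higher and 1349 lower, against 917 and 1068 as deposited. In 3 of the 10 genes the KO and WT arrays did not overlap, against 8.55% of all genes. The median difference of the 10 genes was -0.19, and that of all genes was 0.00.

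Elovl3 (feature TC1900000684.mm.2), the elongase of long saturated and monounsaturated chains, read 11.73, 11.99, 9.75, 12.10 and 8.67 in the KO livers at 4 weeks (replicates 1 to 5). In the WT livers of that age it read 3.46, 5.78, 5.92, 3.93 and 8.26. Every KO value was above every WT value, with KO replicate 5 and WT replicate 5 close to each other, and 2 of the 5 WT arrays were below background. The mean was 10.85 ± 1.55 in KO and 5.47 ± 1.90 in WT livers (SD, n = 5 each). This is a difference of 5.38 (SE 0.79), or 41.6-fold, with a limma adjusted p of 1.19e-04. An exact two-sided permutation test gave p = 0.00794, the smallest it can give for 5 against 5 arrays. Without the 3 arrays that carried muscle transcripts the difference was 5.30.

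Elovl7 (feature TC1300001204.mm.2), an elongase of saturated chains, read 7.12, 7.34, 7.47, 8.10 and 6.44 in KO livers at 4 weeks, against 4.62, 5.29, 5.03, 4.84 and 3.78 in WT livers. The groups were more than a full log2 unit apart, and 3 of the 5 WT arrays were at or below background. KO livers averaged 7.29 ± 0.60 and WT livers 4.71 ± 0.58 (SD, n = 5 each). The fitted difference was 2.58 (SE 0.37), with a limma adjusted p of 1.03e-04. Because the WT mean lay under the background level, the KO level is stated as at least 4.85-fold higher. Without the muscle-carrying arrays the difference was 2.63.

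Fads1 (feature TC1900000188.mm.2), the desaturase that completes arachidonic acid, was the 1 gene of the 10 called lower at this age. It read 14.24, 13.83, 14.21, 14.37 and 14.12 in KO livers and 14.88, 15.01, 14.93, 15.03 and 14.98 in WT livers. The WT arrays lay close together, and all 5 KO arrays were below them. Means were 14.15 ± 0.20 in KO and 14.97 ± 0.06 in WT livers (SD, n = 5 each). Fads1 thus fell by 0.81 (SE 0.15), or was 1.76-fold lower, with a limma adjusted p of 0.00135. Without the muscle-carrying arrays the difference was -0.86. Hepatocyte markers, whose sums were lower in KO livers at this age, had 2 of 11 called lower and 0 higher (6 lower at an unadjusted p under 0.05), with a median of -0.24. The called ones were Fah, which ends tyrosine breakdown, at -0.66 and F2, prothrombin, at -0.45. Their part in the Fads1 difference was not tested.

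Of the other enzymes of the polyunsaturated route at 4 weeks, Elovl5, which elongates their shorter members, read 16.81, 16.74, 16.59, 17.19 and 16.29 in KO and 17.14, 17.32, 17.36, 16.88 and 17.13 in WT livers. A single KO array, replicate 4, was higher than the lowest WT arrays, and the other 4 KO arrays were below all WT arrays. The difference of -0.44 (95% interval -0.89 to 0.01) was not called, since limma gave an adjusted p of 0.232, while the exact permutation p was 0.0317. Scd1, which makes oleate and palmitoleate, was at 18.29, 18.58, 18.16, 18.66 and 18.18 in KO and 18.83, 18.67, 18.94, 18.57 and 18.69 in WT livers. KO replicates 2 and 4 were above the lowest WT array, replicate 4, and the difference of -0.37 (95% interval -0.72 to -0.01) was not called (limma adjusted p = 0.201, exact permutation p = 0.0317). Fads2, the entry desaturase of the route, differed by -0.24 (95% interval -0.64 to 0.16), and Elovl2, which makes the longest polyunsaturated chains, by -0.05 (95% interval -0.34 to 0.23).

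Elovl6, which lengthens palmitate to stearate, varied widely within both 4-week groups, with an SD of 0.92 in KO and 0.91 in WT livers. Its KO arrays ran from 12.91 to 14.82 and its WT arrays from 12.65 to 15.06, and the difference was -0.14 (95% interval -0.98 to 0.71). Elovl1, the elongase of very long saturated chains, averaged 12.63 ± 0.37 in KO and 12.91 ± 0.20 in WT livers (SD, n = 5 each). Fads6, a less studied desaturase-family gene, averaged 9.62 ± 0.15 in KO and 9.69 ± 0.28 in WT livers (SD, n = 5 each). Neither of the last pair was called, with 95% intervals of -0.68 to 0.10 for Elovl1 and -0.38 to 0.26 for Fads6.

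At 8 weeks Elovl7 was higher in livers labelled KO than in WT livers, and limma called 0 of the other 9 genes, of which Elovl5 and Scd1 had an unadjusted p under 0.05. Over all genes 4.94% were called higher and 1.65% lower, and 6.10% had groups that did not overlap, as 1 of the 10 genes did. With array medians set equal the genome-wide split was 817 higher and 727 lower, against 963 and 321 as deposited. The 10 genes had a median difference of 0.25, and all genes had one of -0.04.

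Elovl7 read 6.70, 6.62, 5.59, 5.49 and 7.90 in the 8-week livers labelled KO and 4.40, 4.12, 4.31, 4.02 and 3.62 in WT livers. All KO arrays were above background and no WT array was. The means were 6.46 ± 0.98 in KO and 4.09 ± 0.30 in WT livers (SD, n = 5 each). The fitted difference of 2.37 (SE 0.37) had a limma adjusted p of 3.31e-04, and against the background level the KO signal was at least 2.40-fold higher. The KO effect on Elovl7 differed between the ages by -0.22 (95% interval -1.32 to 0.89), which was not called.

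Elovl3 at 8 weeks read 16.48, 15.54, 15.00, 15.69 and 13.79 in livers labelled KO and 15.00, 17.53, 17.50, 17.12 and 16.71 in WT livers. WT replicate 1 lay as low as the KO arrays, and KO replicate 5 was the lowest of all 10. The means were 15.30 ± 0.997 in KO and 16.77 ± 1.05 in WT livers (SD, n = 5 each). The difference of -1.47 (95% interval -3.12 to 0.17) was not called, since limma gave an adjusted p of 0.321, and the exact permutation p was 0.0635. At 4 weeks, on separate arrays, the KO mean had been the higher one.

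Elovl5 at 8 weeks was 16.97, 16.49, 17.20, 16.44 and 16.75 in livers labelled KO, against 15.30, 16.34, 16.02, 16.70 and 16.27 in WT livers. WT replicate 4 was within the KO range, and the other 4 WT arrays were below it. The difference of 0.64 (95% interval 0.20 to 1.09) had a limma adjusted p of 0.0807, and 0.0326 without WT replicate 4. Scd1 was 19.05, 18.88, 19.29, 18.55 and 18.79 in livers labelled KO, against 18.09, 18.55, 18.17, 19.00 and 18.55 in WT livers. Its difference of 0.44 (95% interval 0.09 to 0.79) had a limma adjusted p of 0.143, and 0.0399 without WT replicate 4. That is the WT array with the highest Elovl5, Elovl6 and Scd1. Neither Elovl5 nor Scd1 was called when any other single array was left out. The intervals of the remaining 6 genes included 0, with differences of 0.39 for Elovl6, 0.30 for Fads2, 0.21 for Elovl2, 0.17 for Fads1, 0.01 for Elovl1 and -0.15 for Fads6.

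**Figure D2:**
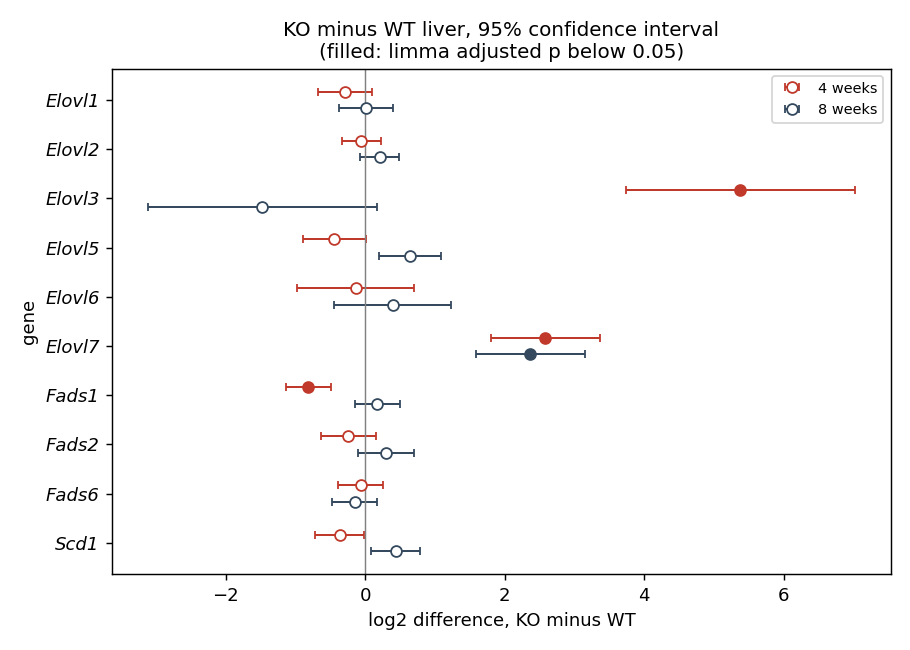
Log2 difference (horizontal axis) of KO minus WT livers for each gene at 4 weeks (red) and 8 weeks (dark blue), with 95% confidence intervals from the limma fit. Filled points passed an adjusted p of 0.05. Elovl7 lies to the right of 0 at both ages, at 2.58 and 2.37, while Elovl3 is at 5.38 at 4 weeks and at -1.47 at 8 weeks.

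The KO effect itself was then compared between the ages. It differed for Elovl3 and Fads1 and was not called for the other 8 genes. Over all genes 2.05% had a higher and 1.0% a lower effect at 8 weeks. Relative to 4 weeks, the effect at 8 weeks differed by -6.85 for Elovl3 (SE 1.12), with a limma adjusted p of 0.00193. For Fads1 it was higher by 0.99 (SE 0.22, limma adjusted p = 0.0164). Elovl5 and Scd1 had values of 1.09 and 0.81, with limma adjusted p of 0.0560 and 0.0729. Ogt, whose own KO difference was smaller at 8 weeks, had an effect difference of 1.16 (limma adjusted p = 0.0307). In 7 of the 10 genes the effect at 8 weeks was the higher one, and the median difference of effects was 0.42, against -0.02 over all genes.

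With age, WT livers showed a large increase of Elovl3 and lower levels of Elovl2, Elovl5, Elovl6, Fads1 and Fads2 at 8 weeks. Elovl1, Elovl7, Fads6 and Scd1 were not called. Over all genes 3.71% were called higher and 5.23% lower at 8 weeks in WT livers, and 9.08% had groups without overlap, as 5 of the 10 genes did. The median difference of the 10 genes was -0.66, and that of all genes was 0.04. The WT and KO age comparisons share their arrays with the KO comparisons of each age, so they are not separate evidence. Without the arrays that carried muscle transcripts the same 6 genes were called in WT livers.

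In WT livers Elovl3 averaged 16.77 ± 1.05 at 8 weeks and 5.47 ± 1.90 at 4 weeks (SD, n = 5 each). The difference was 11.30 (SE 0.79), with a limma adjusted p of 2.93e-09, and 10.33 with values above 16 set to 16. At 4 weeks only 3 of the 5 WT arrays were above background. Across the 20 arrays Elovl3 had an SD of 4.70, larger than that of 99.98% of genes.

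The 4 enzymes of the polyunsaturated route all fell in WT livers with age. Fads2 read 16.72, 16.16, 16, 16 and 15.99 at 8 weeks and 17.22, 17.28, 17.48, 17.38 and 17.07 at 4 weeks. Its groups did not overlap, and the difference was -1.11 (SE 0.19, limma adjusted p = 5.01e-04). Elovl5, with the values given above, differed by -1.04 (SE 0.22, limma adjusted p = 0.00286), and Fads1 by -0.80 (SE 0.15, limma adjusted p = 0.00147), again without overlap. At 8 weeks Fads1 read 13.95, 14.24, 14.27, 14.08 and 14.31 in WT livers. This is the range of the 4-week KO livers, 13.83 to 14.37. Elovl2 was 17.24, 17.21, 17.42, 17.06 and 17.29 at 8 weeks and 18.05, 17.78, 18.16, 17.87 and 17.86 at 4 weeks, a difference of -0.70 (SE 0.14, limma adjusted p = 0.00158). The calls on Elovl2, Elovl5 and Fads2 were lost when values above 16 were set to 16, which removes most of their range.

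Elovl6 fell by 1.51 (SE 0.40, limma adjusted p = 0.0204) in WT livers with age. It read 12.78, 12.76, 11.76, 13.36 and 12.18 at 8 weeks, against 14.14, 14.61, 15.06, 12.65 and 13.91 at 4 weeks. WT replicate 4 at 4 weeks, the array with the most Acta1, lay among the 8-week values, so the groups overlapped, and the difference was -1.86 without it. It was no longer called without 1 of 4 other WT arrays: the adjusted p was 0.0549 without replicate 2 and 0.0691 without replicate 3 at 4 weeks, and 0.0667 without replicate 3 and 0.0521 without replicate 5 at 8 weeks. Fads6 had a difference of 0.47 (limma adjusted p = 0.0599) and was called higher in 5 alternatives: with array medians set equal (adjusted p = 0.0480), with quantile normalization repeated (0.0473), and without WT replicate 1 (0.0467) or 5 (0.0402) at 4 weeks or KO replicate 4 at 8 weeks (0.0499). Scd1 had a difference of -0.27 and Elovl1 one of 0.01 (95% interval -0.38 to 0.40).

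In KO livers with age, Elovl3 and Scd1 were called higher and Elovl2 and Fads2 lower at 8 weeks. The shares over all genes were 7.85% higher and 6.78% lower, and 9.47% had no overlap, as 1 of the 10 genes did. Elovl3 averaged 15.30 ± 0.997 at 8 weeks and 10.85 ± 1.55 at 4 weeks (SD, n = 5 each), a difference of 4.45 (SE 0.79, limma adjusted p = 4.94e-04). Elovl2 differed by -0.44 (adjusted p = 0.0339), Fads2 by -0.57 (adjusted p = 0.0480) and Scd1 by 0.54 (adjusted p = 0.0357), all from limma. Those 3 calls were lost without the arrays that carried muscle transcripts, at adjusted p of 0.128, 0.119 and 0.0675, and each was also lost on leaving out some single KO arrays, such as KO replicate 3 at 4 weeks (0.0869, 0.0595 and 0.0854). Fads2 had an exact permutation p of 0.0714, and its call was lost with array medians set equal (limma adjusted p = 0.0511). It was also lost without most single arrays, even WT arrays outside the comparison, such as WT replicate 4 at 4 weeks (limma adjusted p = 0.0525). Fads1 and Elovl5 differed by 0.19 (95% interval -0.13 to 0.51) and 0.05 (95% interval -0.40 to 0.49). Elovl6 differed by -0.98 and was not called (adjusted p = 0.119), but it was called lower without the arrays that carried muscle transcripts (-1.10, adjusted p = 0.0497) and without KO replicate 5 at 4 weeks (-1.23, adjusted p = 0.0472). Its 8-week KO arrays had an SD of 0.08, against 0.92 at 4 weeks.

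**Figure D3:**
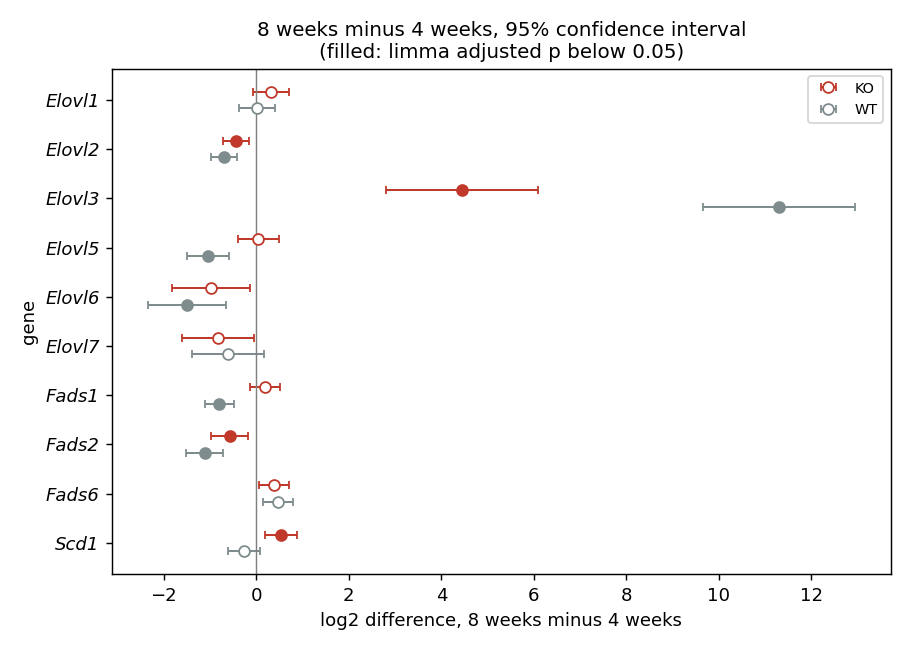
Log2 difference (horizontal axis) of 8 weeks minus 4 weeks for each gene in KO (red) and WT livers (grey), with 95% confidence intervals from the limma fit. Filled points passed an adjusted p of 0.05. Elovl3 is at 4.45 in KO and 11.30 in WT livers, and Fads1 is at 0.19 in KO and -0.80 in WT livers.

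Ordered by group mean, Elovl3 was highest in WT livers at 8 weeks, then in KO livers at 8 weeks, KO livers at 4 weeks and WT livers at 4 weeks, and only the first pair of neighbours was not called different. Fads1 was highest in WT livers at 4 weeks, while the other 3 groups lay between 14.15 and 14.34 and no difference among them that was tested was called. Elovl7 was 6.46 and 7.29 in the KO groups at 8 and 4 weeks and under background in both WT groups. Within groups, several of the 10 genes had their highest or lowest value on the same array. KO replicate 4 at 4 weeks had the highest value of its group in 6 genes and KO replicate 5 the lowest in 6. WT replicate 3 at 4 weeks was highest in 5 and WT replicate 4 lowest in 5, and at 8 weeks KO replicate 3 was highest in Elovl2, Elovl5, Fads1, Fads2 and Scd1. KO replicates 4 and 5 and WT replicate 4 at 4 weeks were the arrays that carried muscle transcripts. The same counts were not made over all genes.

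Genes with the most similar profile were sought for the 3 members with the largest SD, by the root-mean-square (RMS) difference of centred log2 values over the 20 arrays. For Elovl3 they were Cyp4a12a (RMS 1.63), Cyp4a12b (1.66) and C6 (1.77), a pair of fatty acid hydroxylases with near-identical sequences, whose signals cannot be told apart with certainty, and a complement component. All 3 are also in the list of male-biased liver genes used below. Their KO differences at 4 weeks were 3.53, 1.78 and 1.79, against 5.38 for Elovl3, and of the 3 only that of C6 was called. For Elovl7 they were Anxa5 (0.48), a phospholipid-binding annexin, Cd9 (0.58), a tetraspanin, and Cfap300 (0.61), a cilium assembly gene. Anxa5 averaged 14.14 in KO and 12.27 in WT livers at 4 weeks, and 13.75 in KO and 11.60 in WT livers at 8 weeks. For Elovl6 they were Acaca (0.39), the acetyl-CoA carboxylase that makes malonyl-CoA, Slc17a4 (0.55), an anion transporter, and Me1 (0.56), the malic enzyme that supplies NADPH.

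**Figure D4:**
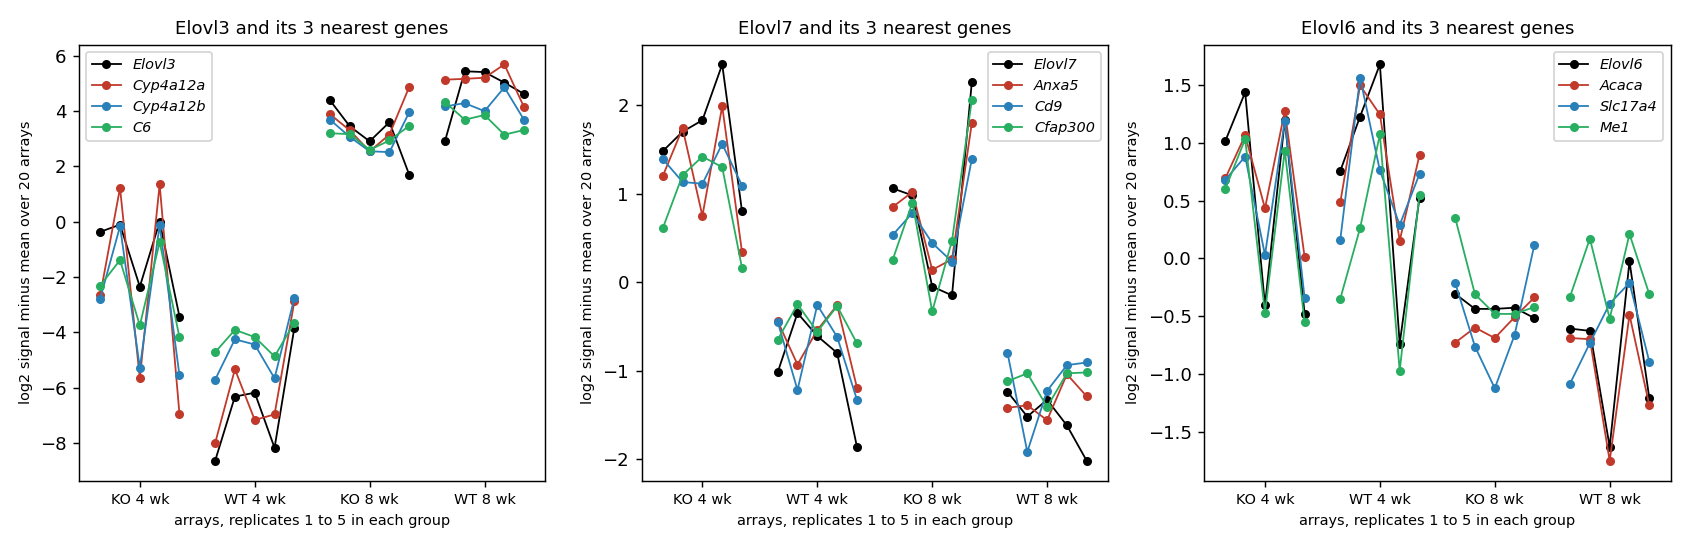
Log2 signal minus its mean over the 20 arrays (vertical axis) for Elovl3, Elovl7 and Elovl6 (black), each with its 3 nearest genes in colour, over replicates 1 to 5 of each group. Lines join replicates to guide the eye and carry no order. Elovl7, Anxa5, Cd9 and Cfap300 have higher means in both KO groups than in the WT group of the same age, and the Elovl3 panel separates 8 weeks from 4 weeks. The nearest genes were chosen for similarity over these same arrays, so a shared pattern follows from the choice. Elovl7 and Cfap300 had WT means under background at both ages.

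Among male-biased liver genes, which include Elovl3, 5 of 18 were called higher and 0 lower in KO livers at 4 weeks, with a median of 0.47. Without Elovl3 these were 4 of 17, with a median of 0.31. At an unadjusted p under 0.05, 8 of the 18 were higher and 2 lower at 4 weeks. Hsd3b5, at -2.47, and C8b, at -0.57, were below 0 and not called. Mup20, a major urinary protein, differed by 4.26 (SE 0.47) and Cyp2u1, a fatty acid hydroxylase, by 1.63 (SE 0.29). At 8 weeks 0 of the 18 were higher and 6 were lower in livers labelled KO, with a median of -1.09. The lower ones included Susd4, a complement regulator, at -3.85 and Cyp7b1, an oxysterol hydroxylase, at -2.75. Of 21 female-biased genes, 8 were lower and 0 higher at 4 weeks (median -1.58), and 3 were higher and 0 lower at 8 weeks (median 0.40). In WT livers with age all 18 male-biased genes were higher (median 3.93) and 20 of the 21 female-biased genes were lower (median -3.60). The Y-linked gene Eif2s3y was between 11.08 and 12.09 on each of the 20 arrays.

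**Figure D5:**
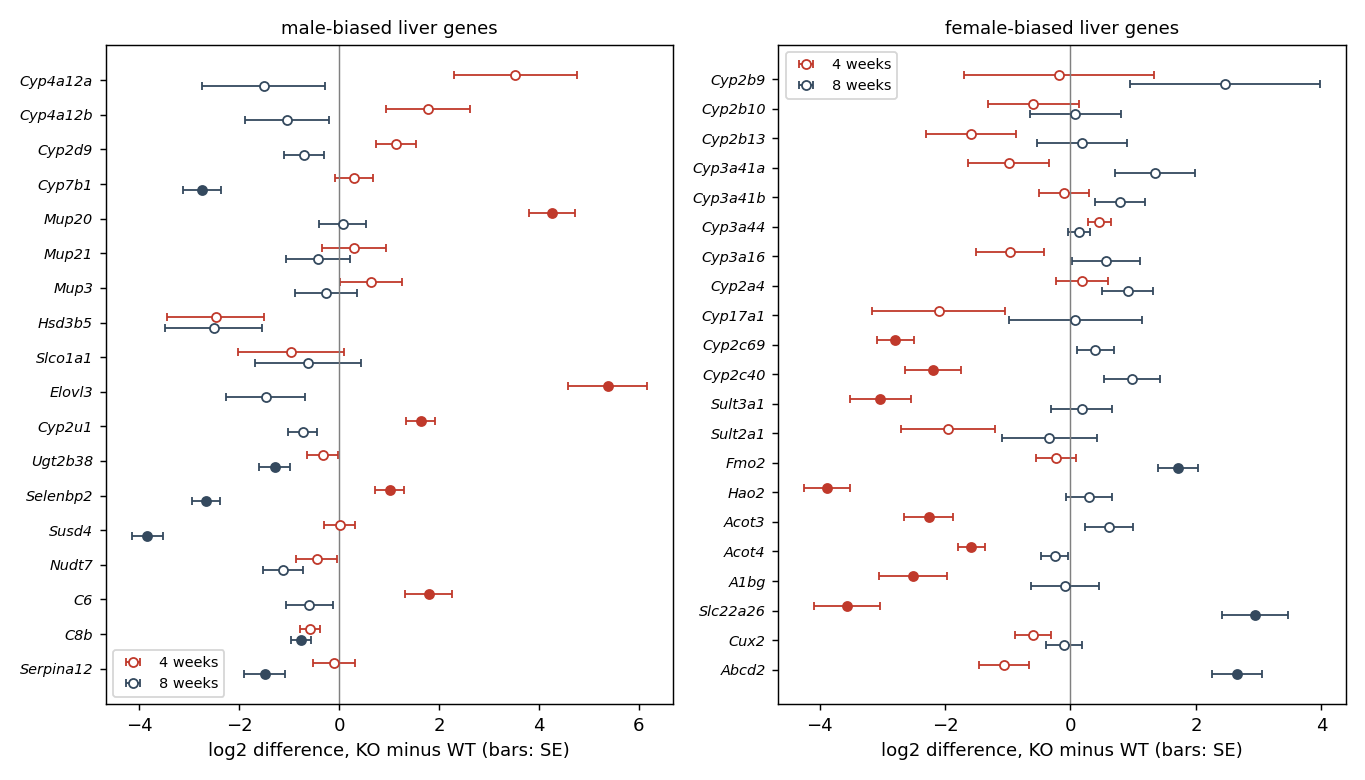
Log2 difference of KO minus WT livers (horizontal axis, bars SE) at 4 weeks (red) and 8 weeks (dark blue) for 18 male-biased genes on the left and 21 female-biased genes on the right. Filled points passed a limma adjusted p of 0.05. Elovl3 has the largest 4-week difference on the left, 5.38, and the filled 8-week points there all lie below 0.

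Among other genes of the 2 families, Fads3, which desaturates sphingoid bases, was higher in KO livers by 0.94 (SE 0.24) at 4 weeks and by 1.08 (SE 0.24) at 8 weeks. Degs1, the dihydroceramide desaturase, was lower by 0.68 at 4 weeks (limma adjusted p = 0.00204), and Degs2, a related hydroxylase and desaturase, was called higher at 8 weeks with both group means under background. The other 4 of the 7 measured, Elovl4, Fads2b, Scd3 and Scd4, were not called and had 4-week means under background. Of the 7 genes for the remaining steps of the elongation cycle, Hacd2, a dehydratase, was higher by 0.38 and Tecr, the final reductase, was lower by 0.76 in KO livers at 4 weeks, and 0 were called at 8 weeks by limma (1 at an unadjusted p under 0.05). Of the 6 genes for electron supply, limma called 0 at either age, and 2 were lower at each age at an unadjusted p under 0.05.

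The genes that supply malonyl-CoA and palmitate, a list that holds Elovl6 and Scd1, had 2 of 11 called lower and 0 higher in KO livers at 4 weeks, with a median of -0.37, and 0 of 11 called at 8 weeks by limma (2 at an unadjusted p under 0.05, 1 in each direction). The 2 lower ones were Acss2, an acetyl-CoA synthetase, at -1.59 (SE 0.41), and Thrsp, a regulator of lipogenesis, at -2.16 (SE 0.69, limma adjusted p = 0.0499). With age in WT livers, 4 of the 11 were lower, among them Elovl6, Acaca (by 1.83) and Fasn, the fatty acid synthase (by 1.56). Sterol synthesis genes, which with lipogenic genes are textbook targets of SREBP factors, had 8 of 15 called lower and 0 higher in KO livers at 4 weeks (median -0.98) and 0 of 15 called at 8 weeks by limma (median -0.28, with 3 lower at an unadjusted p under 0.05). Msmo1, a sterol methyl oxidase, fell by 1.49 and Sqle, the squalene epoxidase, by 1.44. In WT livers with age 11 of the 15 were lower (median -1.14). Among 15 regulators of lipogenic genes 4 were lower at 4 weeks, among them Scap, which escorts SREBP, at -1.17 and Mlxipl, the carbohydrate response factor ChREBP, at -1.02. At 8 weeks 1 was lower, Ppargc1b, at -0.75. The medians of the 15 were -0.28 at 4 weeks and -0.31 at 8 weeks. At an unadjusted p under 0.05, 5 were lower at each age and 1 was higher at 8 weeks. The KO effect was called different between the ages by limma in 0 of the 15 (1 at an unadjusted p under 0.05).

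Of 17 PPAR-alpha targets of fatty acid oxidation, 1 was higher and 6 were lower in KO livers at 4 weeks, and 1 was higher and 1 lower at 8 weeks. Of 13 peroxisomal genes 1 was higher and 2 lower at 4 weeks. At 8 weeks the 1 called gene was Abcd2, a peroxisomal transporter of very long chains, at 2.65. Abcd2 is also in the female-biased list. The medians of the 13 were -0.52 at 4 weeks and -0.41 at 8 weeks. At an unadjusted p under 0.05, 5 were lower and 1 higher at 4 weeks, and 6 were lower and 1 higher at 8 weeks. Of 21 clock genes 1 was called lower at 4 weeks and 0 were called at 8 weeks by limma (2 lower at an unadjusted p under 0.05), with medians of -0.19 and 0.04. Genes of ceramide synthesis, acylation and fatty acid uptake were also called higher in livers labelled KO at 8 weeks, against 4.94% of all genes. Of 7 genes of ceramide synthesis they were Cers5 (at least 0.75) and Cers6 (1.27). Of 16 acyltransferases they were Mboat1 (at least 0.05), Lpcat2 (at least 0.17) and Lpcat1 (0.79). Of 10 genes of uptake and activation it was Cd36 (2.64), a fatty acid carrier. In these lists 0 genes were called lower at 8 weeks by limma. At an unadjusted p under 0.05, 3 acyltransferases and 1 gene of uptake and activation were lower. The WT means of Cers5, Mboat1 and Lpcat2 lay under background, so these 3 log2 differences are bounds. At 4 weeks 0 genes of ceramide synthesis were called by limma (1 higher at an unadjusted p under 0.05). In the same comparison 1 acyltransferase was lower, and 1 gene of uptake and activation was called in each direction.

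In whole liver, more cells of a type and more RNA per cell cannot be told apart. Markers of some other cell types were higher in the KO groups in which Elovl7 was higher. Over all genes, 4.70% were called higher in KO livers at 4 weeks and 4.94% at 8 weeks. Of 15 macrophage markers 6 were higher at 4 weeks and 8 at 8 weeks. By limma 0 of these markers were lower (2 at 8 weeks at an unadjusted p under 0.05). Their summed signal was 14.03 to 14.41 in KO and 12.75 to 13.40 in WT livers at 4 weeks, and 13.05 to 13.94 in KO and 12.29 to 12.55 in WT livers at 8 weeks. Of 8 cholangiocyte markers 1 was higher at 4 weeks and all 8 at 8 weeks, when they summed to between 10.65 and 13.92 in livers labelled KO and between 8.26 and 9.46 in WT livers. At 4 weeks these sums were 8.90 to 10.93 in KO and 8.41 to 9.45 in WT livers. Stellate cell markers had 1 of 13 higher at 4 weeks and 7 of 13 at 8 weeks. Of 9 endothelial markers 1 was lower at 4 weeks and 1 was higher at 8 weeks. Lymphocyte markers had 1 of 9 higher at 4 weeks, Cd3e, whose group means were all under background, and 1 lower at 8 weeks. Of 7 neutrophil markers limma called 0 at either age (at 8 weeks 2 were higher and 1 lower at an unadjusted p under 0.05).

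By array, the 8-week KO liver with the highest Elovl7, replicate 5, also had the highest cholangiocyte sum, 13.92, and the livers with the lowest Elovl7, replicates 3 and 4, had the lowest, 10.65 and 11.11. At 4 weeks KO replicate 4 was highest in both (8.10 and 10.93) and KO replicate 5 lowest in both (6.44 and 8.90). Both of these arrays carried muscle transcripts. On KO replicates 1, 2 and 3 Elovl7 was 7.12, 7.34 and 7.47, and the sums were 9.90, 10.24 and 10.20. WT replicate 5 at 4 weeks was lowest in both (3.78 and 8.41). The WT arrays of that age had the highest Elovl7 on replicate 2 (5.29) but the highest sum on replicate 4 (9.45). WT replicate 5 had the lowest Elovl7 at 8 weeks (3.62) but the highest cholangiocyte sum (9.46). The macrophage sum was highest on KO replicate 5 at 8 weeks (13.94) but on KO replicate 2 at 4 weeks (14.41), with replicate 3 lowest at both ages (13.05 and 14.03). The stellate cell sum was highest on KO replicate 4 at 4 weeks (17.44) but on KO replicate 1 at 8 weeks (17.62). Cd9, 1 of the 3 genes nearest to Elovl7, is itself in the macrophage list. The part of these cells in the Elovl7 difference was not tested. Elovl3 is also known from brown fat. Of 7 adipocyte markers, Ucp1, Cidea, Lep and Plin1 had group means under background in all 4 groups, Adipoq and Retn were above it in WT livers at 4 weeks only, and Fabp4 was above it in every group. The 7 summed to between 9.79 and 11.47 in KO and between 9.39 and 12.34 in WT livers at 4 weeks, and to between 7.76 and 9.33 in KO and between 8.14 and 8.53 in WT livers at 8 weeks. None was called between KO and WT livers at either age by limma (1 lower at an unadjusted p under 0.05 at each age). Fabp4, a fatty acid binding protein, was the 1 marker called with age, and fell by 2.61 in KO and by 2.61 in WT livers. The part of fat cells in the Elovl3 differences was not tested.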

How the data were processed

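RNA from 20 mouse livers was hybridised to Clariom S Mouse arrays, 5 for each genotype and age. The authors deposited log2 signals. Per the submitters' processing notes they used RMA and Affymetrix Expression Console, whose versions are not given in the sources used here. Values ran from 2.32 to 19.85 and were used without further scaling. Of 22206 features, 19572 had 1 symbol in the platform annotation and 2634 were unnamed and left out; the feature with the highest mean was kept for each symbol, which left 19505 genes.

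Models with 4 group means (16 residual degrees of freedom) were fitted in R 4.3.3 by limma 3.58.1, using empirical Bayes moderation. P-values were adjusted by Benjamini-Hochberg over all 19505 genes. Single genes also had an exact two-sided permutation test. The fit was tested on simulated data. Where a WT mean was not above background, the background level took its place and the difference is stated as "at least". The number of arrays limits the precision.

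The 10 genes, the 14 pathway and 11 marker lists and the promoter motifs were chosen with earlier results of these data known. All 10 genes are described. From each list the text names up to 3 called genes with the smallest adjusted p in a comparison, and list medians are descriptions beside the median of all genes. Marker sums are log2 of summed linear signals. The background level was set after results were seen. Scan dates and raw image files were not used here. Array numbers in the titles follow the groups, so an effect of array order cannot be told apart from group. Alternatives covered scaling, filters, row choice, a ceiling at 16, moderation, a replicate block and left-out arrays.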

Additional observations from a re-analysis of the deposited data

Results flagged for a closer look

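The KO effect on Elovl3 differed between the ages, by -6.85 log2 units at 8 weeks relative to 4 weeks (limma adjusted p = 0.00193 over 19505 genes). All 5 KO livers were above all 5 WT livers at 4 weeks, while at 8 weeks the KO mean was lower in a comparison that was not called. The KO effect on Fads1 also differed, by 0.99 (limma adjusted p = 0.0164). All 5 KO livers were below all WT livers at 4 weeks, and at 8 weeks the groups overlapped.

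In 2 of 40 gene and group combinations 1 array lay far from the other 4 of its group, where chance gives about 1 in 20. In WT livers at 8 weeks Elovl1 was 12.55 on replicate 3, against at least 13 on the other 4 arrays. In the same group Fads2 was 16.72 on replicate 1, against at most 16.16 on the others.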

How the results depend on the processing

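Counts of the 10 genes called were 3 for KO against WT at 4 weeks, 1 at 8 weeks, 2 for the difference of effects, 4 for age in KO and 6 for age in WT livers. With quantile normalization repeated the 8-week count was 2 (Elovl5 gained), and with an intensity trend and robust moderation the count for the difference of effects was 4 (Elovl5 and Scd1 gained). The count for age in KO livers was 2 without the arrays with Acta1 above 10, 2 with a replicate block, 1 with values above 16 set to 16 and 1 with only the groups of the comparison; Elovl3 was called in each. The count for age in WT livers was 3 with values above 16 set to 16. Leaving out 1 array gave 3 to 3, 1 to 3, 2 to 4, 1 to 4 and 5 to 7, in the order above. With age, Fads6 was gained in WT livers in 5 alternatives and Elovl6 in KO livers in 2, with the values given above, and Elovl7 in KO livers without KO replicate 5 at 8 weeks (-1.19, adjusted p = 0.0166). The calls on Elovl3, Elovl7 and Fads1 at 4 weeks, Elovl7 at 8 weeks, Elovl3 and Fads1 in the difference of effects, Elovl3 with age and Fads1 with age in WT livers were lost in none of the alternatives run.

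Reversals were seen only in differences that were not called. They were Elovl2 at 4 weeks (0.0167) and Elovl5 with age in KO livers (-0.0121) with quantile normalization repeated, Elovl1 at 8 weeks (-0.081) with array medians set equal, and Elovl1 with age in WT livers (-0.0615) without the arrays with Acta1 above 10. Leaving out 1 array gave -0.49 to 0.12 for Elovl6 and -0.14 to 0.0065 for Fads6 at 4 weeks, -0.12 to 0.14 for Elovl1 at 8 weeks, -0.58 to 0.0265 for the Elovl7 difference of effects, -0.0625 to 0.16 for Elovl5 with age in KO livers and -0.0615 to 0.11 for Elovl1 with age in WT livers. The cause was not tested, except that a ceiling at 16 removes the range of genes above it.

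Over all genes, the difference of effects was higher in 247 and lower in 138 without KO replicate 1 at 8 weeks, against 399 and 196 with all arrays. At 8 weeks genes called lower in KO livers numbered 199 without KO replicate 5, against 321, and calls higher with age in WT livers numbered 472 without WT replicate 4 at 4 weeks, against 723. Same-numbered KO and WT arrays had deviations correlated at -0.15 to 0.48 at 4 weeks and -0.18 to 0.14 at 8 weeks. The highest value was that of replicate 4 at 4 weeks, where both arrays carried muscle transcripts. Such correlations cannot exclude that same-numbered arrays were paired, and the labels give no pairing. The replicate block changed calls of the 10 genes only with age in KO livers, where Fads2 and Scd1 were lost. Genes near background, such as Elovl7 in WT livers, have only a bound.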
